A study of Arabidopsis thaliana with 12 samples.

Results

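The 10 genes described here encode CC-type glutaredoxins (also called ROXY proteins) of Arabidopsis thaliana. They were chosen by locus code, as plant-specific glutaredoxins tied to nitrogen signalling between shoot and root, with earlier results of these data known. Each was kept if a probe set was paired with that gene and no other. All 10 had such a probe set, out of 16550 genes measured in this way. They are AT3G21460, AT1G06830, AT2G47880, AT3G62930, AT3G62950, AT3G62960, AT5G18600, AT2G30540, AT1G03020 and AT4G15680.

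Glutaredoxins are small proteins that use cysteines and glutathione to reduce other proteins. The CC type, named after neighbouring cysteines in its active site, occurs only in land plants, and several of its members bind TGA transcription factors and act as regulators of transcription. In nitrogen signalling, roots short of nitrogen release CEP peptides, which shoots perceive through CEP receptors. The shoot vasculature then makes small CC-type glutaredoxins that travel through the phloem to the roots, where they raise nitrate uptake.

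The study used seedlings that overexpress CLE2, a gene for a small signalling peptide, under an estradiol-inducible system, and all 4 groups carried it. Seedlings aged 7 days and kept at 22 °C had their roots treated for 24 h with estradiol (5 mM by the labels) or with DMSO, its solvent. Roots and shoots were then collected apart. The protocol text names estradiol for all 12 samples, so the DMSO groups rest on sample titles and the treatment label, and the labelled dose could not be checked. There were 3 arrays each of estradiol roots, DMSO roots, estradiol shoots and DMSO shoots, 12 in all, and the series asked which genes act downstream of CLE2. Seedlings given estradiol without the inducible gene were not analysed here, so effects of estradiol and of CLE2 cannot be told apart. The sources used here do not give the promoter, the ecotype, the number of lines or the seedlings pooled per sample. They also leave unstated whether replicates came from separate cultures. The p-values below therefore cover the spread among these arrays alone, and that spread may be technical.

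Values are log2 signals per probe set, so 1 unit is a 2-fold difference in signal. Array medians over all probe sets lay between 5.40 and 5.55, and CLE2 itself was not analysed here. The organ labels were checked with fixed marker lists. All 9 measured photosynthesis genes were lower in roots than in shoots, with list medians of 8.11 to 8.53 on the 6 root arrays and 10.65 to 10.86 on the 6 shoot arrays. All 6 measured root hair and lateral root genes were higher in roots, with list medians of 7.42 to 7.61 on root arrays and 3.50 to 4.13 on shoot arrays. No defining marker was at 0 on any array. Probe sets differ in brightness, so levels are compared between groups for 1 gene and not between genes.

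**Figure D1:**
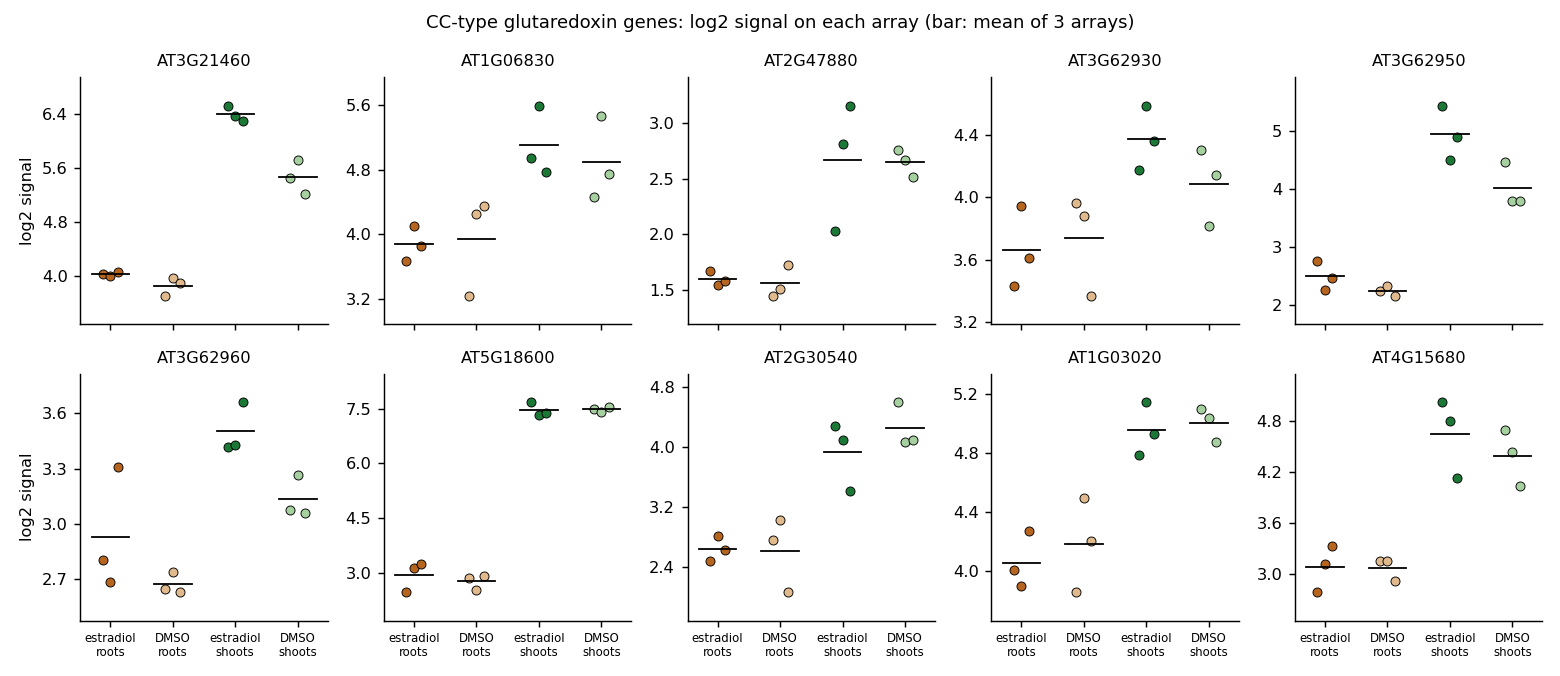
Each panel plots the log2 signal of 1 gene (vertical axis) on the 12 arrays, grouped from left to right as estradiol roots, DMSO roots, estradiol shoots and DMSO shoots; points are arrays, drawn in the order of replicate number within a group, and bars are means of 3. In all 10 panels both shoot means lie above both root means, and the estradiol shoots stand clear of the DMSO shoots for AT3G21460, AT3G62950 and AT3G62960.

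With estradiol at the roots, 1 of the 10 glutaredoxin genes passed the test in shoots: AT3G21460 rose 1.90-fold. None of the 10 was called lower. Over all genes, 0.163% were called in this comparison (limma, Benjamini-Hochberg adjusted p under 0.05), 0.133% as higher and 0.0302% as lower. The 10 genes had a median log2 difference of 0.24, with a range of -0.32 to 0.93, against a median of -0.0038 over all genes tested. For 3 of the 10 genes every estradiol shoot array lay above every DMSO shoot array, where 6.85% of all genes had groups apart in this direction. For 0 of the 10 every estradiol shoot array lay below every DMSO shoot array, as 6.37% of all genes did. An unadjusted p under 0.05 was reached by these same 3 genes, and by 9.95% of all genes. Because the 10 genes were chosen with earlier results of these data known, these shares describe the genes and do not test them as a set.

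AT3G21460 had log2 signals of 6.52, 6.36 and 6.28 in estradiol shoots, against 5.45, 5.72 and 5.21 in DMSO shoots. The lowest estradiol array stood above the highest DMSO array. The means were 6.39 ± 0.12 in estradiol shoots and 5.46 ± 0.26 in DMSO shoots (SD, n = 3 each), a log2 difference of 0.93 ± 0.13 (SE) with a 95% interval of 0.65 to 1.21. It ranked 7 among 16550 genes by p in this comparison (limma, adjusted p = 0.0338). In bulk tissue, more cells of a type and more RNA per cell cannot be told apart.

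The call for this rise depended on the setting. Its log2 difference lay between 0.80 and 1.06 when each of the 6 shoot arrays was left out in turn. Leaving out a root array cannot change it, because it is a difference of shoot group means. Over the other settings it ran from 0.73, with 16 added to each linear value before log2, to 1.01. The call held without DMSO root replicate 1 (limma, adjusted p = 0.0476) and without DMSO shoot replicate 2 (limma, adjusted p = 0.0265), and was lost in the other 10 leave-outs. Among shoot arrays, the limma adjusted p was 0.110 without estradiol shoot replicate 1, 0.0527 without estradiol shoot replicate 2, 0.0876 without estradiol shoot replicate 3, 0.0592 without DMSO shoot replicate 1 and 0.0806 without DMSO shoot replicate 3. Leaving out any one of the other 5 root arrays, which enter this comparison only through the shared spread, gave limma adjusted p between 0.0509 and 0.0648. With the 6 shoot arrays fitted alone the difference is the same 0.93 by construction, and the adjusted p was 0.349 (limma).

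**Figure D2:**
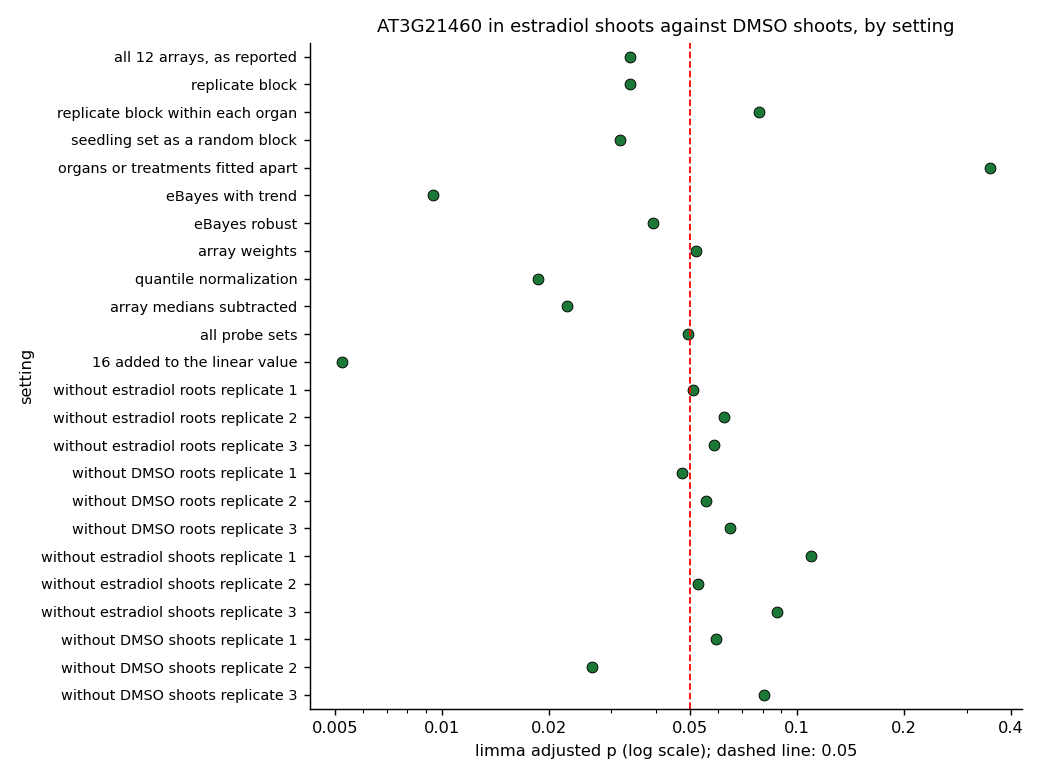
Each point is limma's adjusted p (horizontal axis, log scale) for AT3G21460 in estradiol shoots against DMSO shoots under 1 setting (vertical axis), with the reported fit of 12 arrays on top and a dashed line at 0.05. The reported value is 0.0338, and values run from 0.00524 with 16 added to the linear value to 0.349 with the shoot arrays fitted alone.

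AT3G62950 and AT3G62960, neighbours on the chromosome with no protein-coding gene between them, also stood apart in shoots without passing the threshold. AT3G62950 had log2 signals of 5.44, 4.50 and 4.89 in estradiol shoots, against 4.46, 3.79 and 3.80 in DMSO shoots. Its groups were separated by a narrow gap between estradiol replicate 2 and DMSO replicate 1. The log2 difference of 0.93 ± 0.24 (SE) was as large as that of AT3G21460, with a wider 95% interval of 0.40 to 1.46 (limma, adjusted p = 0.203). AT3G62960, a close relative of the mobile glutaredoxins described next, had log2 signals of 3.42, 3.43 and 3.66 in estradiol shoots, against 3.07, 3.27 and 3.06 in DMSO shoots. Its log2 difference was 0.37 ± 0.15 (SE; 95% interval 0.04 to 0.70; limma, adjusted p = 0.456). Neither gene was called in shoots under any of the 23 other fits tried, whose limma adjusted p ran from 0.0890 to 0.558 for AT3G62950 and from 0.289 to 0.664 for AT3G62960. With 16 added to the linear value, their shoot differences were 0.54 and 0.14.

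AT1G06830 (CEPD1) and AT2G47880 (CEPD2) encode the glutaredoxins first described as phloem-mobile messengers of root nitrogen demand, and neither passed the test in shoots. AT1G06830 had log2 signals of 4.95, 5.60 and 4.77 in estradiol shoots, against 4.46, 5.47 and 4.75 in DMSO shoots. The groups overlapped, and each group had its highest array in replicate 2. The log2 difference was 0.21, with a 95% interval of -0.53 to 0.95 that leaves room for a change of nearly 2-fold in the positive direction. AT2G47880 had log2 signals of 2.03, 2.81 and 3.16 in estradiol shoots, against 2.76, 2.67 and 2.52 in DMSO shoots. The estradiol arrays lay on both sides of the DMSO arrays, and the log2 difference of 0.02 had a 95% interval of -0.48 to 0.51.

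AT2G30540, another gene close in sequence to the CEPD pair, had the lowest shoot difference of the 10. Its log2 signals were 4.28, 4.09 and 3.42 in estradiol shoots, against 4.60, 4.07 and 4.09 in DMSO shoots. The log2 difference of -0.32 had a 95% interval of -0.92 to 0.28 (limma, adjusted p = 0.762), and the groups overlapped. The other 4 genes had shoot log2 differences of 0.29 (AT3G62930, 95% interval -0.14 to 0.72), 0.26 (AT4G15680, -0.25 to 0.78), -0.02 (AT5G18600, -0.44 to 0.40) and -0.05 (AT1G03020, -0.41 to 0.31). Their estradiol and DMSO arrays overlapped for each gene.

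In roots, 0 of the 10 glutaredoxin genes passed the test after estradiol, and 0% of all genes were called (limma, smallest adjusted p over all genes 0.590). None of the 10 had an unadjusted p under 0.05, which 5.17% of all genes had. Root log2 differences of the 10 genes ran from -0.13 to 0.26, with a median of 0.03, against -0.01 over all genes.

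AT3G21460 was the only one of the 10 whose root groups did not overlap, with 4.02, 3.99 and 4.06 in estradiol roots, against 3.70, 3.96 and 3.88 in DMSO roots (5.29% of all genes had root groups apart in this direction). For 0 of the 10 were the estradiol roots apart below the DMSO roots, as they were for 7.05% of all genes. The root log2 difference of AT3G21460 was 0.17 ± 0.13 (SE), with a 95% interval of -0.11 to 0.46 (limma, adjusted p = 0.9998). AT3G62960 had the largest root difference, 0.26, from log2 signals of 2.80, 2.68 and 3.31 in estradiol roots, against 2.65, 2.74 and 2.63 in DMSO roots. Estradiol root replicate 3 stood apart from the other 5 root arrays. AT1G06830 varied most among DMSO roots, with 3.24, 4.25 and 4.35, so that its root interval ran from -0.81 to 0.67.

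**Figure D3:**
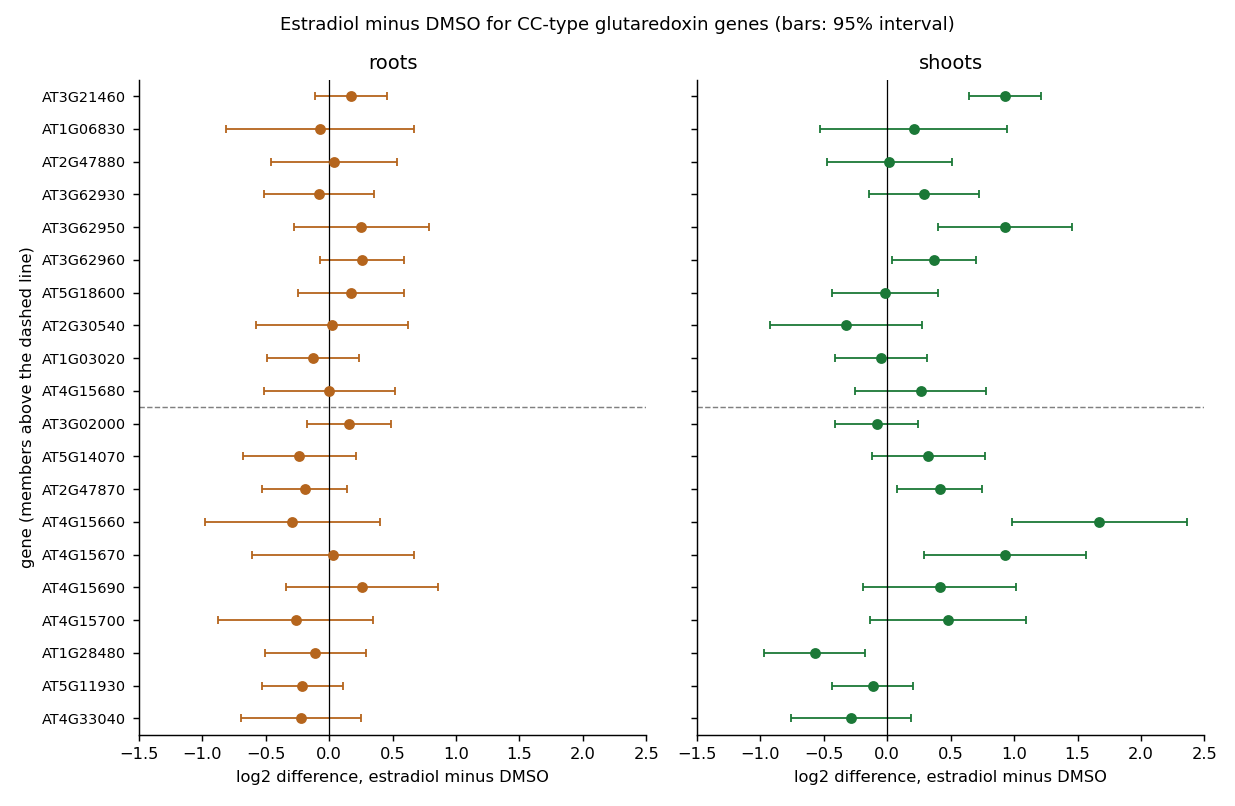
Points are log2 differences, estradiol minus DMSO (horizontal axis), in roots (left) and shoots (right) for the 10 glutaredoxin genes (above the dashed line) and the 10 other measured CC-type genes (below it); bars are 95% intervals from limma. In roots all 20 intervals span 0, and in shoots the intervals of AT3G21460, AT3G62950 and AT3G62960 lie above 0 among the first 10.

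Whether the estradiol difference itself differed between organs was tested as an interaction. Of the 10 genes, 0 passed, as did 0% of all genes (limma, smallest adjusted p over all genes 0.451). Of all 16550 genes 895 had an unadjusted p under 0.05 (limma), and so did 1 of the 10. That gene was AT3G21460, whose shoot difference exceeded its root difference by 0.75 ± 0.18 (SE; 95% interval 0.35 to 1.15; limma, adjusted p = 0.545). A larger rise of AT3G21460 in shoots than in roots was therefore not established at the threshold. For the other 9 genes the shoot difference minus the root difference ran from -0.35 (AT2G30540) to 0.67 (AT3G62950), with adjusted p between 0.964 and 0.999 (limma).

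The organs differed far more than the treatments. In DMSO roots 9 of the 10 glutaredoxin genes were lower than in DMSO shoots and 0 were higher, while 25.8% of all genes were lower and 26.6% higher, 52.5% in all (limma, adjusted p under 0.05). In estradiol roots all 10 were lower than in estradiol shoots, where 26% of all genes were lower and 26.5% higher, again 52.5% in all. Every root array lay below every shoot array for all 10 genes under estradiol and for 9 under DMSO. Over all genes, 30.8% had roots apart below shoots and 29.6% above them under estradiol, and 30.3% and 29.4% under DMSO. The 2 comparisons share no array. The median root minus shoot log2 difference of the 10 genes was -1.26 under estradiol, against -0.09 over all genes, and -1.20 under DMSO, against -0.09 over all genes. Both comparisons share arrays with those between treatments. The size of these differences depends on the scale, because several probe sets are dim in roots and no detection calls were used. With 16 added to each linear value before log2, the differences of the 10 genes ran from -3.01 to -0.21 under estradiol and from -3.09 to -0.15 under DMSO; all 10 were still called under estradiol, and 8 under DMSO. All 6 shoot arrays lay above all 6 root arrays for 8 of the 10 genes, the exceptions being AT3G62930 and AT3G62960.

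AT5G18600 had the widest gap between organs. Its log2 signals were 2.47, 3.13 and 3.24 in estradiol roots, against 7.68, 7.33 and 7.38 in estradiol shoots. In DMSO they were 2.86, 2.54 and 2.91 in roots, against 7.50, 7.40 and 7.54 in shoots. The root minus shoot log2 difference was -4.52 under estradiol and -4.71 under DMSO (limma, adjusted p = 3.90e-09 and 2.74e-09). With 16 added to the linear value these differences were -3.01 and -3.09. Shoot arrays differed from each other by far less than they differed from any root array.

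AT3G62950 and AT3G21460 came next under estradiol, with root minus shoot log2 differences of -2.45 ± 0.24 and -2.37 ± 0.13 (SE). Under DMSO the same differences were -1.78 and -1.61. With 16 added, AT3G62950 differed by -1.12 under estradiol and -0.64 under DMSO, and AT3G21460 by -1.63 and -0.98. For AT3G21460 the root signals quoted above, between 3.70 and 4.06, all lay more than 1 unit below the lowest shoot array at 5.21. For AT3G62950 the root signals were 2.75, 2.26 and 2.46 in estradiol roots and 2.24, 2.32 and 2.15 in DMSO roots, and the lowest shoot array was at 3.79.

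AT4G15680, one of a row of tandem genes that nitrate induces and that restrain primary root growth, had a root minus shoot log2 difference of -1.57 under estradiol and -1.31 under DMSO. Root signals of AT4G15680 lay between 2.79 and 3.33, against 4.03 to 5.02 in shoots. That of AT2G30540 was -1.29 under estradiol and -1.64 under DMSO. Its root signals lay between 2.07 and 3.03, and its shoot signals between 3.42 and 4.60. With 16 added, the differences of AT2G30540 were -0.50 and -0.66, and those of AT4G15680 were -0.75 and -0.60.

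Both CEPD genes were lower in roots as well. AT2G47880 differed by -1.07 under estradiol and -1.09 under DMSO (limma, adjusted p = 0.00179 and 0.00154), with root signals of 1.45 to 1.72. With 16 added, its differences were -0.25 and -0.23 (limma, adjusted p = 0.0108 and 0.0149). AT1G06830 differed by -1.23 ± 0.33 under estradiol and -0.95 ± 0.33 under DMSO (SE; limma, adjusted p = 0.00927 and 0.0338). The DMSO value of AT1G06830 was -0.59 without DMSO root replicate 1 (limma, adjusted p = 0.136), -0.66 without DMSO shoot replicate 2 (limma, adjusted p = 0.131) and -1.02 without DMSO shoot replicate 3 (limma, adjusted p = 0.0526), each of which ended the call. The DMSO call of AT1G06830 was also lost with the DMSO arrays fitted alone (limma, adjusted p = 0.0660). AT1G03020 differed by -0.90 under estradiol and -0.82 under DMSO.

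The smallest organ differences were those of AT3G62960 and AT3G62930. AT3G62960 differed by -0.57 under estradiol and -0.46 under DMSO (limma, adjusted p = 0.00753 and 0.0230). Its DMSO call was lost without DMSO root replicate 1 (limma, adjusted p = 0.0594), DMSO root replicate 3 (limma, adjusted p = 0.0639) or DMSO shoot replicate 2 (limma, adjusted p = 0.0784), after quantile normalization (-0.27; limma, adjusted p = 0.151), with an eBayes trend (limma, adjusted p = 0.0570) and with 16 added to the linear value (-0.15; limma, adjusted p = 0.0779). AT3G62930, which lies 1 protein-coding gene away from AT3G62950, had log2 signals of 3.43, 3.95 and 3.61 in estradiol roots, against 4.18, 4.59 and 4.36 in estradiol shoots. In DMSO it had 3.97, 3.88 and 3.37 in roots, against 4.30, 3.82 and 4.15 in shoots. Its difference of -0.71 under estradiol passed (limma, adjusted p = 0.00976), and its difference of -0.35 under DMSO, where the groups overlapped, did not (limma, adjusted p = 0.159).

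**Figure D4:**
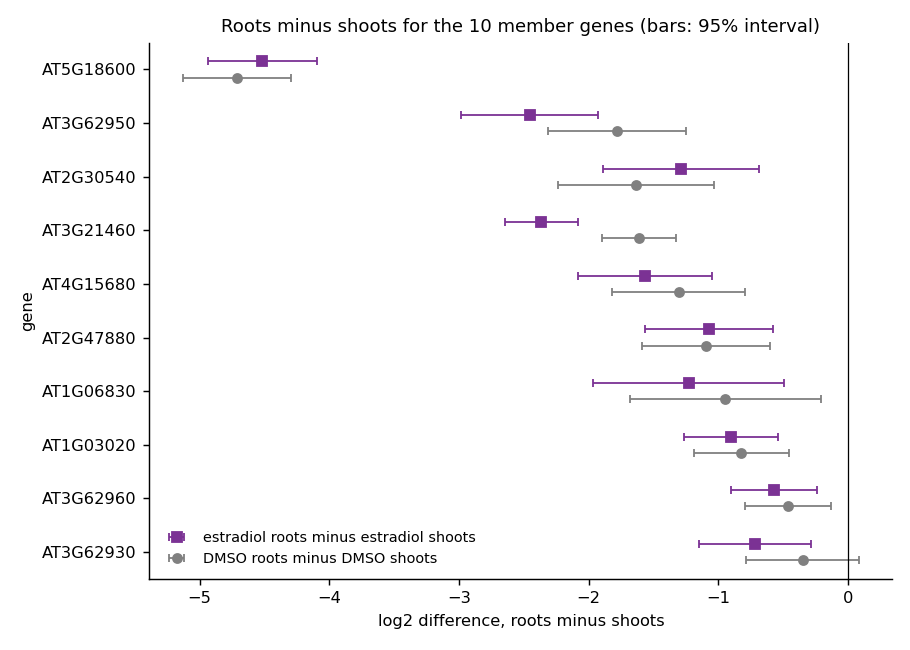
Points are root minus shoot log2 differences (horizontal axis) of the 10 glutaredoxin genes, under estradiol (squares) and under DMSO (circles), ordered by the DMSO value; bars are 95% intervals from limma. All 20 points lie below 0, from -4.71 for AT5G18600 to -0.35 for AT3G62930, whose DMSO interval is the only one to span 0.

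Set in order of mean level, both shoot groups stood above both root groups for all 10 genes. Estradiol shoots were highest for 7 genes and DMSO shoots for 3 (AT5G18600, AT2G30540 and AT1G03020). Apart from AT3G21460, the step between the shoot groups did not pass the test for any of the 10 genes. The step between the root groups passed for none.

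The wider CC-type family was taken from a list of 21 genes, of which 20 were measured, the 10 above included. This list, too, was drawn up with earlier results of these data known. In shoots 1 of the 20 was called after estradiol (AT3G21460), against 0.163% of all genes, and the family median log2 difference was 0.28. An unadjusted p under 0.05 was reached in shoots by 7 of the 20 (limma), against 9.95% of all genes. Estradiol shoots were apart above DMSO shoots for 6 of the 20 and below them for 1, against 6.85% and 6.37% of all genes. In roots 0 of 20 were called, as were 0% of all genes. There 0 of the 20 had an unadjusted p under 0.05 (limma), against 5.17% of all genes. The root minus shoot comparison called 16 of the 20 as lower and 1 as higher under estradiol, and 13 as lower and 1 as higher under DMSO. Over all genes, 26% were lower and 26.5% higher under estradiol, and 25.8% lower and 26.6% higher under DMSO. Of the 16, AT5G11930 differed by -0.38 (limma, adjusted p = 0.0460). It kept its call in 8 of 11 other settings and in 4 of 12 leave-outs. The gene higher in estradiol roots was GRX480 (AT1G28480), a salicylate-inducible partner of TGA factors, by 0.73 (limma, adjusted p = 0.00513). Under DMSO its root minus shoot difference was 0.27 (limma, adjusted p = 0.234). After estradiol GRX480 differed by -0.57 in shoots (limma, adjusted p = 0.316), with the groups apart, and by -0.11 in roots. The gene higher in DMSO roots was ROXY2 (AT5G14070), which acts in anther development, by 0.62 (limma, adjusted p = 0.0239). That call was lost without DMSO root replicate 2 (limma, adjusted p = 0.0724), DMSO root replicate 3 (limma, adjusted p = 0.0928), DMSO shoot replicate 2 (limma, adjusted p = 0.0890) or DMSO shoot replicate 3 (limma, adjusted p = 0.0574). With 16 added, the differences of GRX480 and ROXY2 were 0.22 and 0.26. GRX480, ROXY2 and AT5G11930 were named after their values were seen.

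The tandem row AT4G15660, AT4G15670, AT4G15680, AT4G15690 and AT4G15700 holds 5 CC-type genes with no other protein-coding gene between them. AT4G15660 had the largest shoot difference of the family, with log2 signals of 5.57, 4.43 and 4.49 in estradiol shoots, against 2.92, 3.08 and 3.48 in DMSO shoots. The groups lay almost 1 unit apart, and estradiol replicate 1 stood above the other 2. The log2 difference was 1.67 ± 0.31 (SE; 95% interval 0.98 to 2.36), and it missed the threshold (limma, adjusted p = 0.0767). It passed in 3 of 11 other settings (lowest limma adjusted p 0.0175, with eBayes fitting a trend) and in 0 of 12 leave-outs. With 16 added, the difference was 0.85 (limma, adjusted p = 0.0348).

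Its neighbour AT4G15670 had 6.01, 5.18 and 5.41 in estradiol shoots, against 5.00, 4.75 and 4.06 in DMSO shoots. The groups did not overlap, and the log2 difference was 0.93 ± 0.29 (SE; limma, adjusted p = 0.311). Differences for the rest of the row were 0.26 for AT4G15680, 0.41 for AT4G15690 and 0.48 for AT4G15700, none past the threshold. In roots the 5 genes had differences from -0.29 to 0.26. These genes are near copies of each other, and the part of cross-hybridization between their probe sets in these values was not tested. No probe set of the 10 main genes had values identical to another probe set on the array.

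**Figure D5:**
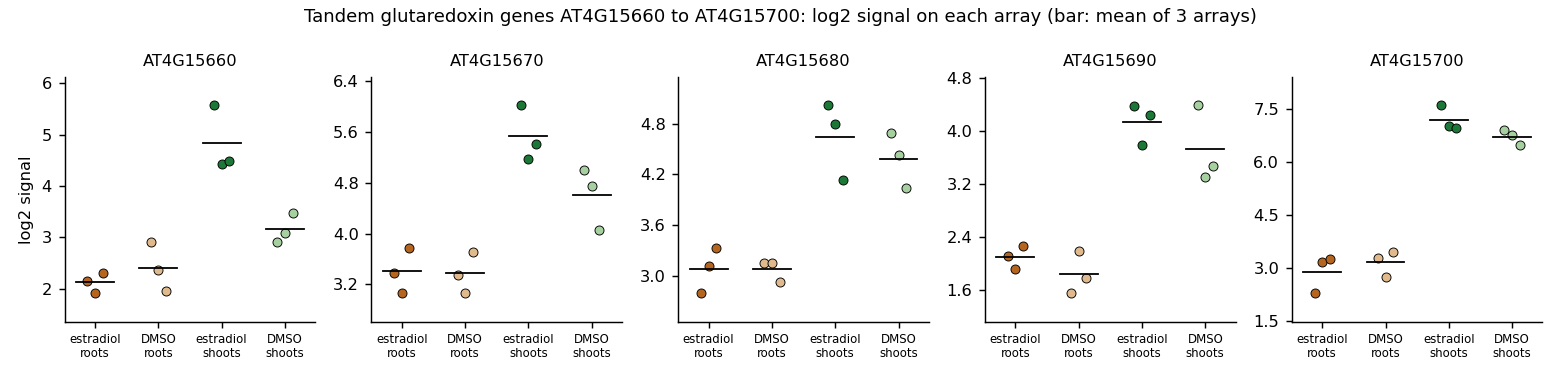
Each panel plots the log2 signal (vertical axis) of 1 gene of the tandem row on the 12 arrays, grouped as estradiol roots, DMSO roots, estradiol shoots and DMSO shoots; points are arrays and bars are means of 3. AT4G15660 shows the widest step between the shoot groups, from 4.43 to 5.57 in estradiol shoots against 2.92 to 3.48 in DMSO shoots, and AT4G15700 the widest step between organs.

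Glutaredoxins of the other classes (CPYC and CGFS types, which serve general redox and iron-sulfur functions) had 5 of 10 listed genes measured. All 5 were of the CPYC type, so the CGFS type was not measured. None of the 5 was called after estradiol in either organ (limma), and 0 had an unadjusted p under 0.05. Their shoot differences ran from -0.12 to 0.07. Under DMSO 4 of the 5 were higher in roots than in shoots, against 26.6% of all genes. Among them were AT1G77370 by 1.11 and AT5G20500 by 0.51. The exception, named after its value was seen, was the plastid glutaredoxin gene GrxC5 (AT4G28730), with a root minus shoot difference of -1.78.

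Other genes of the nitrogen pathway were sparsely measured. Of 9 listed genes for CEP peptides, their receptors and a phosphatase acting on CEPD proteins, 6 were measured and 0 were called after estradiol in either organ (limma; 0 had an unadjusted p under 0.05). Their shoot median was 0.26, with AT5G66815 (CEP5) at 0.33 ± 0.16 (SE). Of 32 nitrate uptake, assimilation and signalling genes only 3 were measured, all of them NIGT1/HHO transcription factor genes. Limma called 0 of the 3 after estradiol in either organ. All 3 had an unadjusted p under 0.05 in shoots (limma), against 9.95% of all genes. Their shoot log2 differences were 0.76 for AT3G25790, 0.51 for AT1G68670 and 0.30 for AT1G25550 (limma, adjusted p = 0.170, 0.0870 and 0.285), and their root differences lay between -0.0029 and 0.07. Of 14 cytokinin genes 2 were measured, ARR15 (AT1G74890) and AT2G40670, and 0 were called after estradiol in either organ (limma). Both had an unadjusted p under 0.05 in roots (limma), against 5.17% of all genes. Their root differences were -0.88 and -0.74 (limma, adjusted p = 0.712 and 0.895), with estradiol roots apart below DMSO roots. In shoots their differences were -0.32 and -0.13. None of the 10 listed TGA factors was measured.

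Marker signals were set beside the shoot rise of AT3G21460. The median of the 6 root markers was 3.76 to 4.13 on estradiol shoot arrays and 3.50 to 3.98 on DMSO shoot arrays. Of these 6, 0 were called, and 1 had an unadjusted p under 0.05 (limma), against 9.95% of all genes. That 1 was the root cellulase gene GH9C1, with a log2 difference of 0.56 ± 0.14 (SE) and an adjusted p of 0.175 (limma). Shoot differences of the 6 ran from -0.0014 to 0.56, with a median of 0.02 and 5 of 6 above 0. The median of the 9 photosynthesis genes was 10.65 to 10.86 on estradiol shoot arrays and 10.71 to 10.82 on DMSO shoot arrays, with 0 of 9 called and 0 of 9 at an unadjusted p under 0.05 (limma). The part of tissue make-up in this rise was not tested. AT3G21460 itself was lower in roots than in shoots under both treatments.

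The genes varied largely apart from each other within an organ. After each organ's mean was subtracted, the 45 pairs among the 10 genes had a median Pearson correlation of 0.08 over the 12 arrays, from -0.55 to 0.78. The highest was between AT3G21460 and AT3G62950, followed by AT3G21460 and AT3G62960 at 0.67. These are the genes whose shoot groups stood apart, and the correlations hold the treatment difference as well as the spread between replicates. The lowest was between AT2G47880 and AT2G30540.

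Among all 16550 genes, those with the pattern most like AT3G21460 by the same measure were AT3G07350, AT2G40530 and AT3G05150, with correlations of 0.94, 0.93 and 0.93 over 12 arrays. AT3G07350, a DUF506 family gene, rose in shoots by 1.22 (limma, adjusted p = 0.0205). AT2G40530 and AT3G05150 had shoot differences of 0.57 and 0.63 that missed the threshold. For AT3G62950 the most alike were AT4G29950, AT1G74910 and AKINBETA1 (AT5G21170), a subunit of the SnRK1 energy-sensing kinase, with correlations of 0.96, 0.96 and 0.95. For the other 8 genes the 3 most alike genes had correlations between 0.85 and 0.94. All these correlations are descriptions over arrays that share the same groups.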

How the data were processed

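The authors' deposited values are log2 signals for each probe set on each array, ranging from 0.34 to 14.13, and none is missing. Per the submitters' processing notes, Affymetrix Expression Console 1.3 produced them; background correction and normalization: not given in the sources used here. Groups and replicate numbers came from sample titles. Of 38408 probe sets, GEO's platform annotation pairs 16722 with 1 gene, 759 with several and 20927 with none; the last 2 kinds were left out. The brightest probe set of each gene was kept, which gave 16550 genes, named through the RefSeq table of assembly TAIR10.1. No sequence was used, and gene coordinates served only to order protein-coding genes along the chromosomes.

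Limma 3.58.1 in R 4.3.3 (lmFit, eBayes) fitted 4 group means over all 12 arrays with 8 residual degrees of freedom. Benjamini-Hochberg adjustment ran over all genes, with calls under 0.05. The code was tested on simulated data.

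Members and lists were chosen with earlier results of these data known. Named were the 10 members, up to 4 genes per list with the smallest treatment p, and the 3 genes most alike each member. Alternatives were replicate and seedling blocks, organs fitted apart, eBayes settings, array weights, normalizations, gene filters, other thresholds, leaving out each array, and adding 16 to linear values. The number of arrays limits precision.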

Additional observations from a re-analysis of the deposited data

How the results depend on the processing

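The count of genes called after estradiol in roots, and for the interaction of treatment and organ, stayed at 0 of 10 under every setting that could be run. All 10 were called lower in estradiol roots than in estradiol shoots under each such setting. Under DMSO the count was 9 and ran from 7 to 9, with 7 at an adjusted p under 0.01. In shoots after estradiol the single call, AT3G21460, became 0 with a replicate block within each organ (limma, adjusted p = 0.0781), with the organs fitted apart, with array weights (limma, adjusted p = 0.0518) and at an adjusted p under 0.01; over the 12 leave-outs the count ran from 0 to 1. The replicate block over all arrays changed no call of the 10 genes. Residuals of same-numbered estradiol and DMSO arrays correlated at 0.05 to 0.08 in roots and 0.03 to 0.14 in shoots, and those of same-numbered roots and shoots at 0.02 to 0.05 under estradiol and 0.05 to 0.10 under DMSO. Residuals of differently numbered arrays in these comparisons correlated at -0.15 to 0.03. The labels do not say what a number marks, or whether roots and shoots of 1 number belong to 1 set of seedlings. A block for such seedling sets changed no call among the 50 results of the 10 genes. Over all 16550 genes the reported 27 shoot calls became 39 with a replicate block over all arrays and 94 with an eBayes trend. They became 77 with 16 added to linear values, 59 with array medians subtracted and 7 with array weights. With organs fitted apart 0 were left (1239 at an unadjusted p under 0.05, limma), and the 12 leave-outs gave 0 to 19. Of 1140 recomputed values of the 10 genes, 1099 kept their sign and 41 changed it, none of them called. Quantile normalization moved the median DMSO root minus shoot difference of all genes from -0.09 to 0.01. The fit of genes above the median level held 0 of the 10 genes and gave no value for them. The file holds no detection calls, so signal over background is unknown for these dim probe sets. The cause of the changed calls was not tested.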
